A study of Mus musculus with 2 samples.

Results

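Csf1r, the gene of the receptor for colony-stimulating factor 1, was followed in single cells of the murine retinal pigment epithelium (RPE) together with 9 other genes. These were Csf1 and Il34, which encode the receptor's 2 ligands, and 7 genes that are abundant in microglia, namely C1qa, C1qb, C1qc, Fcer1g, Ctss, Cx3cr1 and Aif1. The 10 genes were found by symbol among the 27998 genes listed for each sample. Their levels were described in cells in which transthyretin (Ttr), the most abundant RPE transcript here, took at least 5% of the unique molecular identifiers (UMIs, which mark single captured transcripts) and in cells in which it took under 3%. The genes and both Ttr limits were chosen on these same cells, so the difference between the classes is given below as a description, with no test.

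The cells came from 2 untreated male C57BL/6J mice, R1 and R2, at P36 by the protocol, while the sample labels give an age range of 4 to 5 weeks. The RPE of both eyes of a mouse was released from the eyecup as sheets with trypsin, dissociated and pooled, and live cells were sorted without an RPE or leukocyte marker, so choroidal or retinal cells that came off with the sheets could pass the gate. There was 1 condition, and each mouse gave 1 library of the 10x Genomics droplet platform. The matrices held 2844 cells with 26034378 UMIs in R1 and 2994 cells with 29732969 UMIs in R2, with between 2145 and 34617 UMIs per cell, and 12 barcodes occurred in both. After filtering on quality and doublets, 2668 cells of R1 and 2846 cells of R2 remained, of which 2609 (97.8%) and 2827 (99.3%) were Ttr high and 59 and 19 were Ttr low. No cell lay between the limits. The lowest Ttr share among Ttr-high cells was 5.18% in R1 and 5.14% in R2, and the highest among Ttr-low cells was 2.66% and 0.755%.

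CSF1R is a receptor tyrosine kinase of class III, on which microglia and most other tissue macrophages depend for their survival. Its ligands CSF1 and IL-34 are made by other cells, and neurons are the best known source of IL-34 in the nervous system. The RPE is the pigmented epithelium between the photoreceptors and the choroid, and microglia are the resident macrophages of the neural retina. A few macrophages that stick to RPE sheets, or transcripts that they release, can therefore bring Csf1r into an RPE preparation, together with the genes that macrophages express far more strongly.

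The label of the Ttr-high cells as RPE was checked against 8 RPE markers. These made up 400 UMIs per 10000 in R1 and 449 in R2, and all Ttr-high cells held at least 3 of the 8. Best1, a chloride channel of the RPE, was the exception with 7 and 11 UMIs in all. Holding 3 of the 8 did not set the classes apart, since 49 of 59 and 13 of 19 Ttr-low cells did so too. The summed level did. The lowest Ttr-high cell stood at 113 per 10000 in R1 and 174 in R2, and the highest Ttr-low cell at 80.5 and 47.2. Of the Ttr-low cells, 52 in R1 and 15 in R2 carried at least 3 of 6 markers of a second, Pax6-marked pigment cell population. A further 3 and 2 carried fibroblast markers, 2 and 1 carried microglia markers, and 2 and 1 carried none of these. At least 3 of the 6 were also held by 926 of 2609 Ttr-high cells in R1 and 633 of 2827 in R2. The summed level of the 6 differed more, with cell medians of 265 and 207 per 10000 in Ttr-low cells against 9.89 and 7.39. Ttr-low cells were shallower, with medians of 3200 and 3836 UMIs against 8406 and 7685 in Ttr-high cells, so shares of cells are also given after each cell was thinned at random to 2000 UMIs. Every kept cell had at least that depth.

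Csf1r was present in a large part of the Ttr-high cells of both mice. R1 held 3653 Csf1r UMIs in its Ttr-high cells and R2 held 3211, which is 1.54 UMIs per 10000 (95% Poisson interval 1.50 to 1.60) and 1.198 per 10000. The mean over the mice was 1.37 ± 0.246 per 10000 (SD, n = 2). At the deposited depth 1644 of 2609 Ttr-high cells of R1 (63.0%) and 1388 of 2827 of R2 (49.1%) held at least 1 Csf1r UMI. At 2000 UMIs per cell these were 667 cells (25.6%, 95% Clopper-Pearson interval 23.9 to 27.3%) and 524 cells (18.5%), or 22.1% ± 4.97 (SD, n = 2). Csf1r was thus higher in R1 than in R2, and with 2 mice this difference has no replicate check. Intervals throughout cover counting error only.

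**Figure D1:**
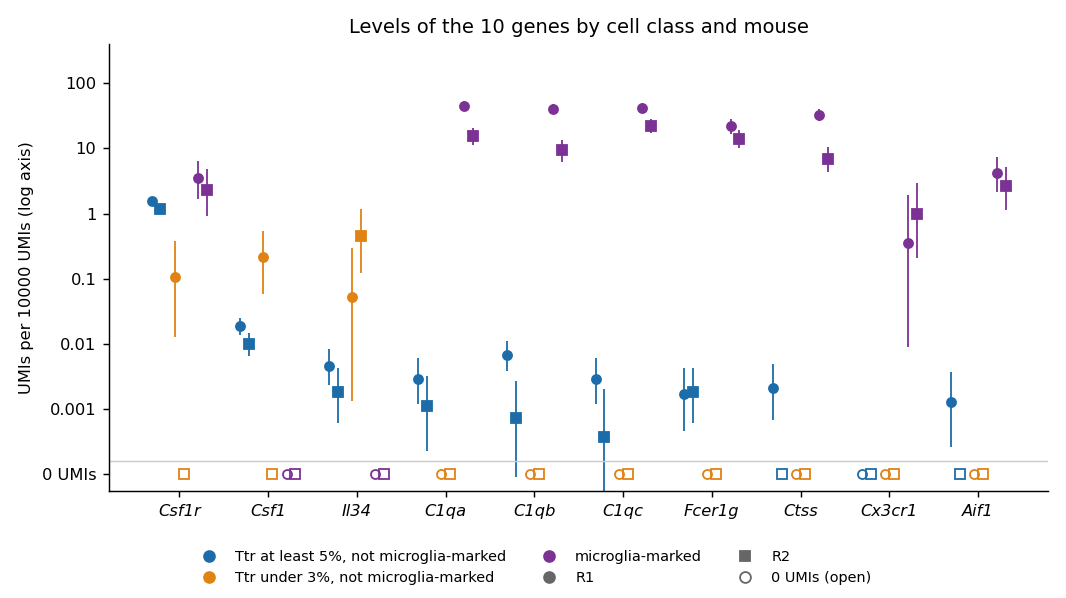
Level of the 10 genes in UMIs per 10000 (log axis) in R1 and R2, in Ttr-high cells without microglia markers, Ttr-low cells without microglia markers and microglia-marked cells, with exact 95% Poisson intervals as bars; open symbols mark 0 UMIs. Csf1r sits at 1.54 and 1.198 in the first class, while each of the 7 microglia genes lies far below it there. In the microglia-marked cells the C1q genes, Fcer1g and Ctss lie above Csf1r, Aif1 lies close to it and Cx3cr1 lies below it.

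Among the genes with at least 1 UMI in the Ttr-high cells without microglia markers (defined below), Csf1r ranked 849 of 15416 in R1 and 1062 of 15207 in R2. Each UMI of these libraries stands for 1 transcript captured at its 3′ end, so levels of different genes were compared without a length correction. For scale, Rdh5 and Rpe65, 2 enzymes of the visual cycle, stood at ranks 11 and 16 in R1. The microglia genes of R1 lay between rank 11534 for C1qb and rank 13350 for Aif1, and Cx3cr1 had no UMI. Those of R2 lay between rank 12826 for Fcer1g and rank 14306 for C1qc, and Ctss, Cx3cr1 and Aif1 had no UMI. Csf1r thus stood above 94.5% and 93.0% of the genes detected in RPE cells, yet far from the most abundant ones.

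The Csf1r UMIs were spread over many cells. In R1 965 Ttr-high cells had 0 Csf1r UMIs, 684 had 1, 462 had 2, 229 had 3 and 269 had 4 or more. In R2 the same numbers were 1439, 571, 363, 195 and 259. The highest cell held 15 UMIs in R1 and 18 in R2. The variance was 1.91 and 2.39 times the mean at the deposited depth, and 1.12 and 1.25 times the mean at 2000 UMIs per cell. If all Ttr-high cells of a mouse had had the same Csf1r level per UMI, 26.8% of them would have held a Csf1r UMI after thinning in R1 and 20.7% in R2, against the 25.6% and 18.5% observed. At the deposited depth an equal level would have given 69.2% and 59.7%, against the 63.0% and 49.1% observed. Cells without a Csf1r UMI were thus more frequent than an equal level in all cells would give, by more percentage points at the deposited depth than after thinning.

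Detection followed depth closely. When the Ttr-high cells of a mouse were ordered by total UMIs and cut into 10 bins of equal size, the share with a Csf1r UMI went from 33.0% at a median of 2730 UMIs to 86.2% at 18233 UMIs in R1, and from 21.2% at 2917 to 85.5% at 22802.5 in R2. Thinned to 2000 UMIs, the bins lay between 21.1% and 28.4% in R1 and between 13.1% and 21.6% in R2. The level itself lay between 1.42 and 1.95 per 10000 in R1 and between 0.916 and 1.36 in R2. By thinned share the 3 shallowest bins of R2 were its lowest, whereas the shallowest bin of R1 had the highest level of that mouse.

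**Figure D2:**
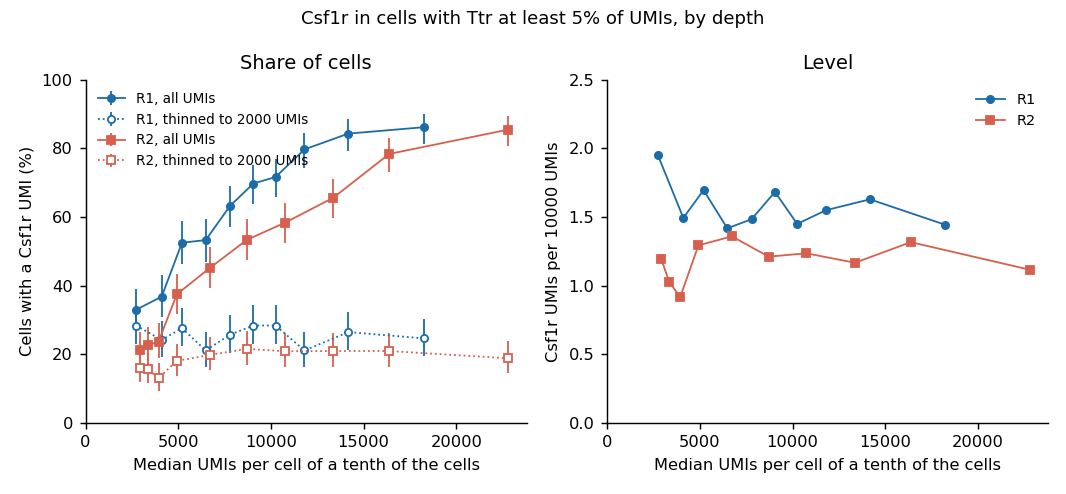
Share of Ttr-high cells with at least 1 Csf1r UMI (percent) against the median UMIs per cell of each of 10 depth bins in R1 and R2, at the deposited depth and after thinning to 2000 UMIs, with exact 95% binomial intervals. The deposited share climbs to 86.2% and 85.5% with depth, and the thinned share stays between 13.1% and 28.4%.

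This relation to depth was tested between summed cells. UMIs at 2000 per cell were summed over the deepest and the shallowest of 3 equal parts of the Ttr-high cells of each mouse (869 and 870 cells in R1, 942 and 943 in R2) and compared by edgeR's quasi-likelihood test with the mouse as a block. Csf1r had 1.52 UMIs per 10000 in the deep and 1.64 in the shallow cells of R1, and 1.197 and 1.08 in R2, counted at the deposited depth. Its log2FC was 0.04 ± 0.17 (SE, Benjamini-Hochberg adjusted p = 0.995), with opposite signs in R1 (-0.17) and R2 (0.29). Of 8479 genes, 33 (0.389%) were lower in deep cells and 0 were higher, while 546 genes had an unadjusted p under 0.05. The 33 included Malat1 (-0.51), mt-Nd1 (-0.66), mt-Cytb (-0.73) and Actb (-1.26), so deep and shallow RPE cells differed in some abundant transcripts while Csf1r showed no difference that the test could detect. Data were also simulated at this depth, without a mouse effect. In them the same test recovered 136 of 200 genes changed by a log2FC of 1 and 0 of 200 changed by 0.5.

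Csf1r was rare in Ttr-low cells. Among the 57 Ttr-low cells of R1 without microglia markers, 2 held 1 Csf1r UMI each (3.51%, 0.428 to 12.1%), and both were Pax6-marked. This is 0.107 per 10000 with an interval of 0.013 to 0.386. None of the 18 such cells of R2 held one, which allows a share of up to 16.7% when 0 counts stand for up to 3. This limit is of another kind than the R1 interval. It is not read as lying below the thinned Ttr-high share of R2 (18.5%). The Ttr-high level without microglia-marked cells was 14.4-fold higher in R1, with a counting interval of 3.99 to 119. In R2, with 0 UMIs in the Ttr-low cells, the same kind of interval started at 2.86-fold (3.52-fold against 3 counts over the group).

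RPE transcripts in general were also present at low levels in Ttr-low cells, and each of the 57 and 18 unmarked cells held at least 1 of the 8 RPE markers. Summed, the markers reached 8.77% of their Ttr-high level in Ttr-low cells of R1 and 5.56% in R2, and Ttr, which set the classes, reached 6.31% and 3.13%. Csf1r reached 6.93% and 0%. At the share of the RPE markers, 2.53 Csf1r UMIs would fall in the Ttr-low class in R1 and 0.587 in R2, beside the 2 and 0 observed. Whether the RPE transcripts of Ttr-low cells, Csf1r included, came from these cells or from free RNA was not tested. Values near the limits include microglia-marked cells. There 12 R1 cells with 5 to 6% Ttr held 1.86 Csf1r UMIs per 10000 and the 4 such cells of R2 held 1.43. The 8 R1 cells with 1 to 3% Ttr held 0 UMIs. A microglia-marked cell with 14376 UMIs and no Csf1r UMI was among the 4, and another microglia-marked cell was among the 8.

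The microglia genes lay mostly in a few cells, of both Ttr classes, that also carried other microglia markers. Cells were marked as microglia from at least 3 of 12 markers that are not among the 10 genes (Tyrobp, Trem2, Tmem119, Ptprc, Spi1 and others), and 7 cells in all met this, 4 in R1 and 3 in R2. Each of the 7 also held between 1 and 4 of 6 markers of other macrophages, and the microglia markers P2ry12 and Gpr34 were at 0 UMIs in all 4 of R1 while Gpr34, P2ry13, Cd53 and Tmem119 were at 0 in all 3 of R2, so microglia and other macrophages were not told apart. No marker of other leukocytes was found in them. Of the 7, 3 were Ttr low, with 2534 to 2968 UMIs, and 4 were Ttr high, with 9489 to 14376 UMIs and 7 of the 8 RPE markers in each. The doublet scores of these 4 lay between the percentiles 85.6 and 91.3 of their mouse, below the removed range, and whether they were RPE cells joined to a macrophage was not tested.

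The subunit genes of C1q, the first component of the classical complement pathway, lie side by side and on 1 strand within 18675 bases of chromosome 4 (GRCm38, chr4:136880129-136898803). In the microglia-marked cells C1qa stood at 44.3 UMIs per 10000 in R1 and 15.6 in R2, C1qb at 40.4 and 9.32, and C1qc at 42.2 and 22.0. All 7 cells held all 3 C1q genes. Fcer1g, which encodes the signalling chain shared by several Fc receptors, stood at 21.8 and 14.0, and Ctss, which encodes the lysosomal protease cathepsin S, at 33.0 and 6.99. Aif1, known as IBA1 and a standard microglial marker, stood at 4.22 and 2.66, and Cx3cr1, the receptor of fractalkine, had 1 UMI in R1 and 3 in R2.

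The macrophage factor PU.1 binds elements with a GAGGAA core, which reads TTCCTC on the other strand. RefSeq promoters (GRCm38.p6) were at hand for 7 of the 10 genes, and 4 of these hold such a core in the 250 bases before the start site, as do 23.3% of 32851 promoters. Csf1r, Il34 and C1qa had no promoter entry, so of the 7 genes only Csf1 was not a microglia gene. Stretches of 30 bases around the core are shown for the 4 genes that hold it. They run from 5′ to 3′ on the strand of the gene, with the core in capitals. A match is a description and not a binding site.
C1qb: gcagcaggatggGAGGAAcagaggggtgat
C1qc: gacggcagacacTTCCTCattttggcacac
Ctss: gacacagggttgGAGGAAaactttgtcctg
Aif1: tagccgtggtgataggcacccagTTCCTCc
They lie at chr4:136886213-136886242 (minus strand), chr4:136893090-136893119 (minus strand), chr3:95526610-95526639 (plus strand) and chr17:35176053-35176082 (minus strand). Neither form of the core was found in the windows of Csf1, Fcer1g and Cx3cr1.

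Outside the microglia-marked cells the same genes were almost absent from Ttr-high cells. Over 2607 such cells in R1 and 2825 in R2 there were 7 and 3 UMIs of C1qa, 16 and 2 of C1qb, 7 and 1 of C1qc, 4 and 5 of Fcer1g, 5 and 0 of Ctss, 3 and 0 of Aif1 and 0 and 0 of Cx3cr1. No cell held more than 1 UMI of any of them. Together these were 42 UMIs in 40 cells of R1 (1.53%) and 11 UMIs in 11 cells of R2 (0.389%). In the Ttr-low cells without microglia markers all 7 genes had 0 UMIs, over 57 and 18 cells. For the summed C1q genes of R1 this allows up to 0.160 per 10000, above the 0.0127 of its unmarked Ttr-high cells. The 0 is therefore not read as a lower level. Csf1r itself had 3643 UMIs in 1642 cells (63.0%) and 3208 UMIs in 1387 cells (49.1%) of the same Ttr-high cells, so leaving out the microglia-marked cells removed 10 and 3 of its UMIs.

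Between Ttr-low and Ttr-high cells of both mice, 936 of 11973 genes (7.82%) were at least 2-fold higher and 550 (4.59%) at least 2-fold lower, on UMIs per 10000 with 0.1 added. C1qa, C1qb, C1qc, Fcer1g and Ctss were among the higher ones and Csf1r among the lower ones. Csf1 was in neither set, and Il34, Cx3cr1 and Aif1 had under 10 UMIs in a mouse. These calls use the contrast that chose the genes and nothing is read from them. The 3 Ttr-low microglia-marked cells held every UMI of the 5 higher genes in the Ttr-low class.

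Csf1r and the C1q genes stood in very different proportions in the classes. In the 7 microglia-marked cells there were 17 Csf1r UMIs beside 502 of the C1q genes, a ratio of 0.0339 (0.0196 to 0.0548). In the 3 of them that were Ttr low, which hold little RPE RNA, there were 4 beside 186 (0.0215, 0.0058 to 0.0560). In the unmarked Ttr-high cells the ratio was 121 in R1 (84.9 to 180) and 535 in R2 (245 to 1458). The 6851 Csf1r UMIs of these cells in both mice thus stood beside 36 C1q UMIs. Within the Ttr-low microglia-marked cells the mice differed, with 0 Csf1r UMIs beside 118 in R1 and 4 beside 68 in R2.

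The microglia-marked cells varied among themselves. R1 had Ttr-low cells with 0 Csf1r UMIs beside 58 and 60 C1q UMIs, whereas the Ttr-low cell of R2 held 4 beside 68. The 4 Ttr-high cells held 1 and 9 in R1 and 0 and 3 in R2, so 9 of the 10 Csf1r UMIs of the marked R1 cells came from 1 cell. Per 10000 UMIs Csf1r stood at 3.51 (1.69 to 6.46) in the microglia-marked cells of R1 and 2.33 (0.937 to 4.80) in the R2 ones. This was 2.28 times (1.09 to 4.20) and 1.94 times (0.781 to 4.01) its level in the unmarked Ttr-high cells. The sum of the C1q genes was 9991 times (6877 to 15025) and 20946 times (9387 to 58043) as high. For Csf1r the R2 interval includes equal levels. The R1 value rests mostly on the 1 cell with 9 UMIs, which a counting interval does not reflect, so it is not read as a higher level. These values pool the 4 cells that also carry many RPE transcripts. In the 3 Ttr-low ones alone Csf1r was at 0 of 5385 UMIs in R1, which allows up to 5.57 per 10000, and at 13.5 per 10000 (3.67 to 34.5) in the single cell of R2, beside 1.198 in the unmarked Ttr-high cells of that mouse.

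**Figure D3:**
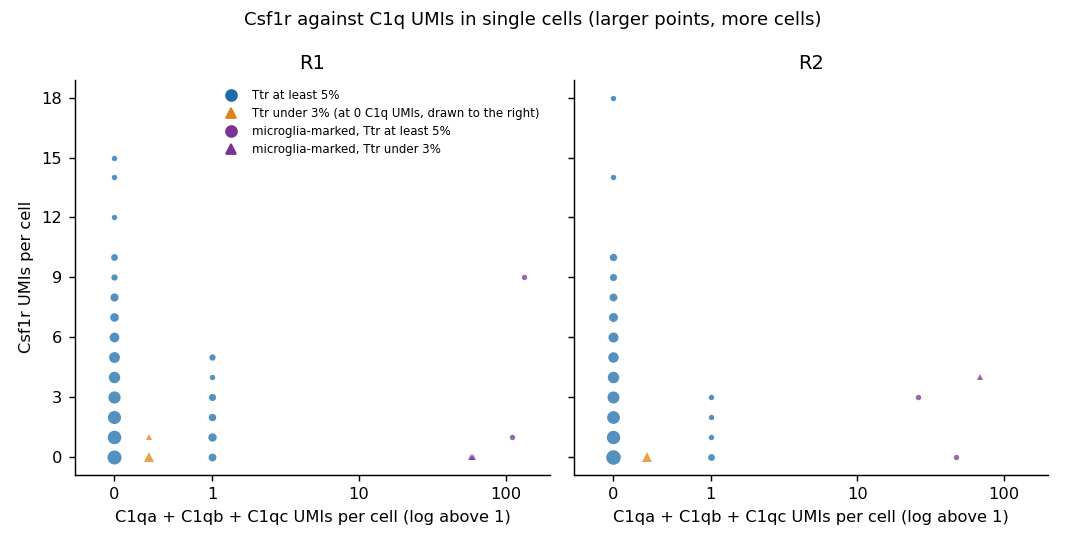
Csf1r UMIs against summed C1qa, C1qb and C1qc UMIs in each kept cell of R1 and R2 at the deposited depth, with larger points for more cells; Ttr-low cells at 0 C1q UMIs are drawn just to the right of 0. Nearly all cells lie at 0 C1q UMIs, with or without Csf1r UMIs, and the microglia-marked cells lie at 26 to 133 C1q UMIs with 0 to 9 of Csf1r.

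Csf1r occurred in the cells that held a microglia UMI about as often as its shares within 3 depth parts would give. The expected numbers come from the separate shares of the genes in each part, so depth within a part is not adjusted for. In unmarked Ttr-high cells of R1, 28 cells held both Csf1r and any of the 7 genes, where 28.2 were expected. In R2 there were 7 where 6.18 were expected. Of the cells with a microglia UMI 70.0% (53.5 to 83.4%) held Csf1r in R1 and 63.6% (30.8 to 89.1%) in R2, against 63.0% and 49.1% of all. By gene, C1qb was found with Csf1r in 13 cells of R1 (11.5 expected), C1qc in 6 (4.60 expected) and C1qa in 4 (4.84 expected). Conversely, 1614 Csf1r-positive cells of R1 and 1380 of R2 held no UMI of any microglia gene. This was the rule with or without Csf1r. A microglia UMI was held by 1.71% of Csf1r-positive and 1.24% of Csf1r-negative cells in R1, and by 0.505% and 0.278% in R2. At 2000 UMIs per cell only 3 and 1 cells held both, with 1.79 and 0.512 expected, which is too few to set the observed against the expected number.

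The transcriptomes of RPE cells with and without a detected Csf1r UMI were compared on the other genes. Cells were split by the presence of a Csf1r UMI after thinning, which gave 667 and 1942 cells in R1 and 524 and 2303 in R2, and the thinned UMIs were summed per mouse. At the deposited depth 1644 and 1388 Ttr-high cells held Csf1r, so many cells of the negative class had lost theirs by thinning. A low number of genes passing is therefore not read as likeness of cells with and without Csf1r. The median deposited depth was 8513 against 8383.5 UMIs in R1 and 8798.5 against 7513 in R2. By edgeR's quasi-likelihood test 4 of 9174 genes (0.0436%) passed an adjusted p of 0.05, 3 higher (0.0327%) and 1 lower (0.0109%) in Csf1r-positive cells, and 592 had an unadjusted p under 0.05. Simulated data at this depth, again without a mouse effect, gave 168 of 200 recovered genes at a log2FC of 1 and 60 of 200 at 0.5.

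Rgr, the retinal G protein-coupled receptor of the RPE visual cycle, had 181 UMIs per 10000 in Csf1r-positive and 190 in Csf1r-negative cells of R1, and 222 and 237 in R2 (log2FC -0.10 ± 0.018, adjusted p = 0.000356). It was 1 of the 8 RPE markers, of which 7 were tested and the other 6 did not pass. Malat1, a nuclear long non-coding RNA, had 177 against 163 in R1 and 179 against 166 in R2 (0.10 ± 0.018, adjusted p = 0.000641). The mitochondrial gene mt-Nd1, a subunit of complex I, had 31.6 against 28.6 and 36.4 against 33.5 (0.11 ± 0.027, adjusted p = 0.0425). These changes ran the same way in both mice, and the largest within a mouse was a log2FC of 0.14 for mt-Nd1 in R1. None of the 3 passed edgeR's test when cells were thinned to 4000 UMIs, where the log2FC was -0.05 for Rgr (adjusted p = 0.437), 0.0080 for Malat1 (adjusted p = 0.994) and 0.06 for mt-Nd1 (adjusted p = 0.724). By DESeq2 on the cells thinned to 2000 UMIs Rgr and Malat1 passed and mt-Nd1 did not. Malat1 and mt-Nd1 were lower in deep than in shallow cells above, and higher here in the Csf1r-positive cells, whose median depth was the larger. The part of depth in their difference was not tested.

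The fourth gene, Gsn, which encodes the actin-severing protein gelsolin, had a log2FC of 3.45 ± 0.398 (adjusted p = 2.56e-13) that rested on 1 cell. In R1 it had 7 UMIs in Csf1r-positive and 10 in Csf1r-negative cells. In R2 it had 61 and 12, and 57 of the 61 came from a single cell with 4 fibroblast markers and 1 microglia marker, without which 4 remain.

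None of the other 9 genes had enough UMIs to be tested between Csf1r-positive and Csf1r-negative cells. In thinned cells C1qc had 13 UMIs in the positive and 4 in the negative cells of R1, and 11 of the 13 were in microglia-marked cells. In R2 it had 1 and 5. When cells were thinned to 4000 UMIs instead, C1qc passed the test (log2FC 3.72 ± 0.635, adjusted p = 2.48e-05), as did Lyz2, the macrophage lysozyme (4.17, adjusted p = 2.12e-08). All C1qc UMIs of the positive cells at that depth, 31 in R1 and 8 in R2, were in microglia-marked cells, beside 1 and 3 UMIs in negative cells. Outside the microglia-marked cells no C1qc UMI was therefore found in a Csf1r-positive cell there.

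The ligands were scarce in RPE cells. Csf1 had 45 UMIs in 35 Ttr-high cells of R1 (1.34%) and 27 UMIs in 21 cells of R2 (0.743%), which is 0.0190 and 0.0101 per 10000. Il34 had 11 UMIs in 6 cells and 5 UMIs in 3 cells, or 0.00466 and 0.00187 per 10000. Against their receptor, with 3653 and 3211 UMIs in the same cells, both ligands were thus low.

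In Ttr-low cells without microglia markers Csf1 had 4 UMIs in 3 of 57 cells of R1 (0.214 per 10000) and 0 in 18 cells of R2. Il34 had 1 UMI in R1 (0.0535 per 10000) and 4 UMIs in 2 cells of R2 (0.454 per 10000). The microglia-marked cells held no UMI of either ligand. Csf1 was found with Csf1r in 22 Ttr-high cells of R1 (25.3 expected from the shares within depth parts) and 15 of R2 (13.4 expected). Il34 was found with Csf1r in 2 and 2 (4.01 and 2.24 expected). These counts are too small for a finer statement.

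The receptors of the same class were described as well, in unmarked Ttr-high cells. Kit, the receptor of stem cell factor, stood at 0.110 and 0.0739 per 10000, and Pdgfrb at 0.0567 and 0.0519, both well under Csf1r. Flt3 and Pdgfra had 0 UMIs in both mice. Pdgfrb is the neighbour of Csf1r (GRCm38, 18:61100598-61132149, plus strand) and ends 15536 bases before it. On its other side Csf1r shares 873 bases at its 3′ end with Hmgxb3 on the opposite strand, and whether counting used strand is not given in the sources used here. Hmgxb3 was counted at 0.102 and 0.0777 per 10000, far below Csf1r.

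Of the other proteins that bind IL-34, the receptor phosphatase gene Ptprz1 had 23 and 9 UMIs and the syndecan gene Sdc1 had 65 and 64. Among the other colony-stimulating factor genes, the GM-CSF receptor chain gene Csf2ra stood at 0.0931 and 0.0504 per 10000, its partner Csf2rb had 2 and 1 UMIs, and Csf3r, Csf2 and Csf3 had 0. Csf1r was thus the only colony-stimulating factor receptor of this list above 0.1 per 10000 in both mice.

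Of 13 genes whose products carry the signal of CSF1R, 10 were detected in unmarked Ttr-high cells of both mice and 3 were at 0 in both. The adaptors and kinases used by many receptors were the higher ones. Pik3r1, a regulatory subunit of phosphoinositide 3-kinase, stood at 0.634 and 0.600 per 10000, Gab2 at 0.302 and 0.256, Grb2 at 0.280 and 0.273, and Stat3 at 0.263 and 0.243. Akt1, Cbl, Shc1 and Sos1 followed at 0.255, 0.122, 0.108 and 0.0470 per 10000 in R1 and 0.230, 0.107, 0.0836 and 0.0463 in R2. Those that are mostly used in leukocytes were the lower ones, with 1 and 1 UMIs of Syk, 22 and 38 of Plcg2 and 0 of Inpp5d (the phosphatase SHIP1), Pik3cd and Pik3cg. Of the 13 genes 8 could be tested between Csf1r-positive and Csf1r-negative cells and 0 passed the edgeR test. Over all 9174 genes tested 4 passed (0.0436%), so a count of 0 among 8 does not tell these genes from others. Their median log2FC was 0.07 beside -0.0013 over all genes tested, with a smallest edgeR adjusted p of 0.867.

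The 4 myeloid transcription factor genes Spi1 (PU.1), Irf8, Runx1 and Cebpa had 3, 1, 8 and 14 UMIs in R1 and 1, 5, 12 and 4 in R2, counted over unmarked Ttr-high cells. In the 7 microglia-marked cells Irf8 had 5 and 7 UMIs, and Spi1, itself 1 of the 12 markers that define these cells, had 6 and 7. Csf1r thus occurred in RPE cells beside very few UMIs of these 4 genes.

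**Figure D4:**
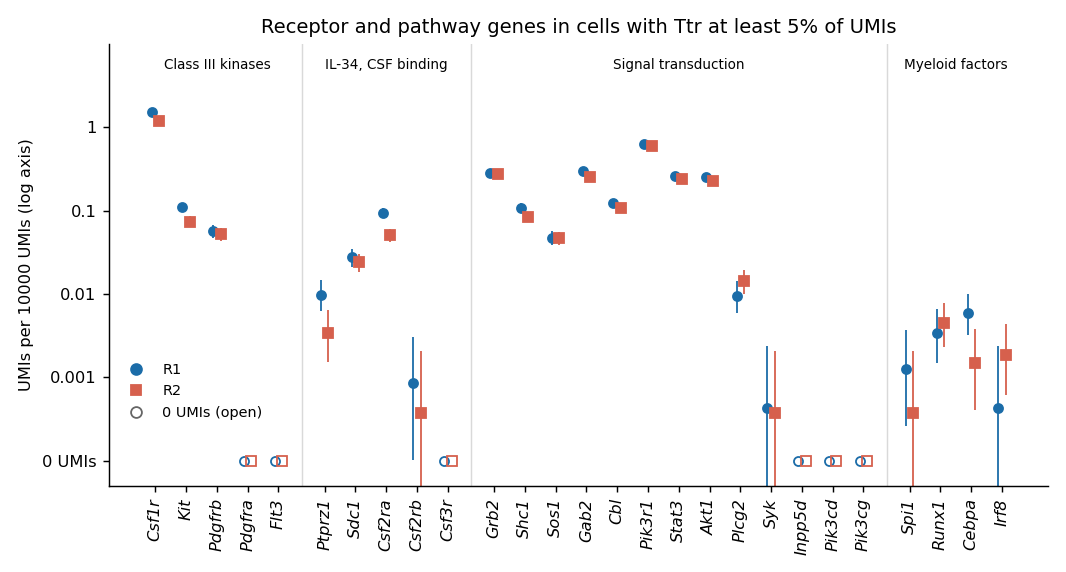
Level in UMIs per 10000 (log axis) of Csf1r and other class III kinase, IL-34 or CSF binding, signal transduction and myeloid transcription factor genes in Ttr-high cells without microglia markers of R1 and R2, with exact 95% Poisson intervals; open symbols mark 0 UMIs. Csf1r at 1.54 and 1.198 lies above the other receptor genes and above each of the signalling genes shown.

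Ligands that act on microglia through other receptors differed widely. Mif, the gene of macrophage migration inhibitory factor, stood at 15.8 and 13.3 per 10000 and was found in 99.8% and 99.2% of unmarked Ttr-high cells. Cd47, whose product restrains phagocytosis, stood at 0.376 and 0.389. The others were low, with 36 and 37 UMIs of Cx3cl1 (fractalkine), 36 and 34 of Cd200, 35 and 17 of Tgfb1, 22 and 23 of Tgfb2 and 1 and 0 of Ccl2. Of these genes 2 could be tested by edgeR between Csf1r-positive and Csf1r-negative cells, and neither passed. Over all 9174 genes tested 4 passed (0.0436%), so this does not tell the 2 from other genes.

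The genes most like Csf1r over 14 groups of cells (the 3 depth parts of the Ttr-high cells and 4 kinds of Ttr-low cells in each mouse) were Plbd1, Snx15, Fnbp1, Plxna1 and Tuba1c. Their Pearson r with Csf1r, on log2(UMIs per 10000 + 0.1), was 0.987, 0.981, 0.981, 0.978 and 0.965, the highest of 8787 genes with at least 100 UMIs in each mouse. The groups of a mouse share a library and several hold 1 to 3 cells, so these are descriptions. They also follow the Ttr classes used to choose Csf1r, so a high r can restate that contrast. Csf1r was at 0 in several small Ttr-low groups. There 0 counts allow up to 5.57 per 10000 (microglia-marked cells of R1) and 6.88 (other cells of R1), above its Ttr-high level. Without the group made of the single Ttr-low microglia-marked cell of R2, r was 0.980, 0.971, 0.973, 0.985 and 0.995, and Gsta2 (0.986) and Pde4b (0.982) then stood above Plbd1, Snx15 and Fnbp1, so the order rests partly on that cell. Plbd1 stood at 0.476 to 0.636 per 10000 in the 3 depth parts of R1, Snx15 at 1.04 to 1.05 and Tuba1c at 1.64 to 1.80. Plbd1 was highest in the deep cells of R1, where Csf1r was lowest.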

How the data were processed

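Single-cell RNA-seq of sorted RPE cells from R1 and R2 was analysed. The authors aligned reads to GRCm38 with Cell Ranger 1.2.0 and deposited raw UMI counts per gene and cell, with no normalization. The methods and the labels name different kit versions, and barcodes had 14 bases. R2 held more barcodes than the study states, and the cells kept in R1 differed by 1 from its count. Cells under 500 genes (4 and 0) or over 5% mitochondrial UMIs (58 and 28) were left out, as were the 4% (114 and 120) with the highest doublet score (25% artificial doublets, nearest 1%, 10 components). SoupX was not used. Cells were thinned to 2000 UMIs with a fixed seed. Levels are UMIs per 10000, shares have 95% Clopper-Pearson and levels exact Poisson intervals, and 0 counts allow up to 3.

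Tests used 4 sums of thinned counts in edgeR 4.0.16 (R 4.3.3) with TMM, filterByExpr, Benjamini-Hochberg adjustment and the mouse as a block. Sums with the same mouse come from 1 animal, and their deviations correlated (0.327 between Csf1r-positive and -negative sums, 0.305 between depth sums). Cells of a mouse are not replicates, and p-values rest on 2 mice. The tests were checked on simulated counts, in which 0 genes were called where none changed. The simulated sums had no mouse effect and the same dispersion for all genes, so the pairing by mouse was not checked. Changed genes were drawn from those with at least 100 UMIs over the 4 sums. Alternatives were 4000 UMIs, no thinning, other Ttr limits, no doublet removal, no filter, no TMM, no block, DESeq2 1.42.0 and leaving out each mouse. Members and lists were chosen with earlier results of these data known. Named genes were the members, the list genes, genes passing the Csf1r test and the 5 most like Csf1r. Malat1, mt-Nd1, mt-Cytb, Actb and Pmel of the depth test, and Lyz2, Rdh5, Rpe65, Gsta2 and Pde4b, were chosen after their values were seen. 1 further gene listed for signal transduction is not reported here. Figures were drawn with matplotlib 3.10.9.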

Additional observations from a re-analysis of the deposited data

How the results depend on the processing

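With 2 mice, values have little replicate support, and under 20 Ttr-low cells in R2 leave wide intervals. The mean share of Ttr-high cells with Csf1r was 22.1% at 2000 UMIs, 38.2% at 4000 and 56.1% unthinned (18.5 to 25.6% leaving out a mouse), as detection follows depth. Levels were counted at the deposited depth in every setting, so thinning could change only which cells entered. The Csf1r level of 1.37 per 10000 kept within 1 SD under the alternatives. Leaving out a mouse (1.198 to 1.54) must keep within 1 SD when there are 2 mice. In Ttr-low cells, microglia-marked ones included, the mean share with Csf1r was 4.33%, 0% at 4000 UMIs (8 cells per mouse deep enough) and 1.79% without cells holding a microglia marker UMI (3.39 to 5.26% leaving out a mouse), and the level was 0.271, 0 at 4000 UMIs and 0.055 without those cells (0.104 to 0.439 leaving out a mouse). The share with a C1q UMI was 0.205% of Ttr-high cells, 0.429% at 4000 UMIs and 0.755% unthinned (0.141 to 0.268%), and 4.33% of Ttr-low cells, 0% at 4000 UMIs and 0% without cells with a microglia marker (3.39 to 5.26%). Observed over expected co-detection, here over all Ttr-high cells with the microglia-marked ones included, was 1.56 (5 cells against 3.21), 0.990 at 4000 UMIs and 1.02 unthinned (1.10 to 1.74). In the Csf1r test the count of genes was 4, and 11 with no filter, 2 with DESeq2 (Rgr and Malat1), 2 at 4000 UMIs (C1qc and Lyz2, none of the 4) and 2 (Rgr and Malat1) without cells holding a microglia marker UMI (for tests, an alternative chosen after seeing the data, in which Gsn fell below the filter). Without the mouse block 0 passed by edgeR (241 with an unadjusted p under 0.05), although the sums are paired by mouse. In the depth test it was 33, and 6 without TMM, 4 with DESeq2, 297 at 4000 UMIs (161 higher, 54.2%, against 0 in the main setting) and 0 without the block (268 with an unadjusted p under 0.05). The log2FC of Csf1r with depth was 0.04, -0.030 at 4000 UMIs, -0.17 without R2 and 0.29 without R1. No count of called genes could be had with a mouse left out, since no residual degree of freedom remains. The causes of these differences were not tested.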

Other observations

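The 7 other ligand genes that act on microglia were also counted in Ttr-low cells, most of which carried Pax6 markers. In unmarked cells Tgfb2, which encodes a transforming growth factor, had 63 UMIs in 57 Ttr-low cells of R1 and 41 in 18 of R2, or 3.37 and 4.65 per 10000, beside 22 and 23 UMIs in all unmarked Ttr-high cells. Cd47 stood at 2.67 and 1.93 per 10000 beside 0.376 and 0.389. Ptprz1, whose product binds IL-34, stood at 1.18 and 1.02 per 10000 with 22 and 9 UMIs, beside 23 and 9 UMIs over the far larger number of Ttr-high cells. Mif went the other way, with 5.99 and 3.29 per 10000 beside 15.8 and 13.3. Of the remaining ligands Cx3cl1 had 0 and 2 UMIs in the Ttr-low cells, Cd200 10 and 2, Tgfb1 3 and 0 and Ccl2 0 and 0. These are values of the contrast that chose the genes and were not tested. In the depth test the melanosome gene Pmel, a Pax6-marked list gene, was lower in deep RPE cells (log2FC -1.26, edgeR adjusted p = 0.000996). Dkk3, Mlana, Dct and Aldoc of the same list were tested and did not pass. Their log2FC was -1.39 (edgeR adjusted p = 0.0509), -0.38, -0.35 and -0.18, and Aldoc had opposite signs in the mice.

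In the microglia-marked cells of R1 the chemokine gene Ccl2 had 12 UMIs, against 1 UMI in all unmarked Ttr-high cells of that mouse. Inpp5d had 5 UMIs in the microglia-marked cells of R1 and Pik3cd had 3 in those of R2, and both had 0 in unmarked Ttr-high cells.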
